A study of Homo sapiens with 4 samples.

Results

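The response to the circular RNA hsa_circ_0008399 was compared between 2 human bladder cancer cell lines, T24T and EJ. For each gene the log2 ratio of circ-transfected over vector-transfected cells was taken within each line, and the EJ ratio was subtracted from the T24T ratio. Of the 56303 genes in the deposited table, 12463 had at least 50 counts in the higher library of each line and were compared. A gene was called different when the subtraction gave at least 1 on the log2 scale, which is 2-fold, in either direction and its 95% counting interval left out 0. By this rule 75 genes differed, 0.602% of those compared. The circ over vector ratio was higher in T24T for 45 of them (0.361%) and higher in EJ for 30 (0.241%).

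EJ and T24T are established lines. T24T is known as a variant selected from the line T24, and EJ is listed in cell line collections as a relative of T24, so they may share an origin. The groups were EJ with vector, EJ with hsa_circ_0008399, T24T with vector and T24T with hsa_circ_0008399, each with 1 library of total RNA. The series was designed to find genes downstream of the circle. With 1 library per group no difference has a replicate check, no test was possible, and every interval given covers counting error only. A response of the line and an accident of 1 of the 4 libraries cannot be told apart.

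Circular RNAs form when a downstream splice site of a transcript is joined to an upstream one, which closes a stable loop that can bind proteins or microRNAs. Several of the genes that separated the lines belong to programs with known switches. When the kinase GCN2 senses uncharged tRNA, or PERK senses unfolded protein, translation shifts towards the factor ATF4, which switches on amino acid synthesis, amino acid import and tRNA charging. Hypoxia-inducible factors switch on glycolysis and vessel growth genes, serum response factor switches on immediate early genes, and YAP with TEAD factors switches on secreted matrix proteins such as CTGF.

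Total counts lay between 14703455 and 18057768, and 23799 to 25044 genes had at least 1 count per library. KRT7, KRT18, KRT8, CD44 and VIM were kept among 16 markers of urothelial carcinoma, while UPK3A and KRT5 had 0 counts in every library and the other uroplakins, GATA3 and CDH1 stayed under the minimum. Of the leukocyte markers CD68, a lysosomal protein that many cell types make, was kept at 10.2 to 61.5 CPM (counts per 1000000 counts of the library), CD14 had at most 2 counts, and PTPRC, CD3E and LYZ had 0. The summed level of 4 endothelial markers was 0.136 to 0.886 CPM, and MYH11 alone was kept among 9 fibroblast and muscle markers, whose sum was 5.44 to 8.72 CPM. All mitochondrially encoded genes together, not mRNA alone, took 5.40% of counts with vector and 4.01% with circ in EJ, against 5.05% and 3.08% in T24T.

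Over all 12463 genes the median difference was -0.01, with quartiles of -0.17 and 0.15. The ratios of the lines went together across genes, with a Pearson r of 0.57, given as a description because both share the design and genes are not independent replicates. Responses of at least 1.5-fold whose interval left out 0 numbered 363 up and 423 down in T24T and 335 up and 325 down in EJ, of which 115 were up in both lines and 96 down in both. In units of its counting error, the central 68% of the difference spanned 1.71 to either side, where counting error alone would give about 1. The differences therefore spread by more than counting error, and that spread mixes responses of the lines with variation between libraries. A small difference beyond counting error cannot be told apart from variation between libraries.

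**Figure D1:**
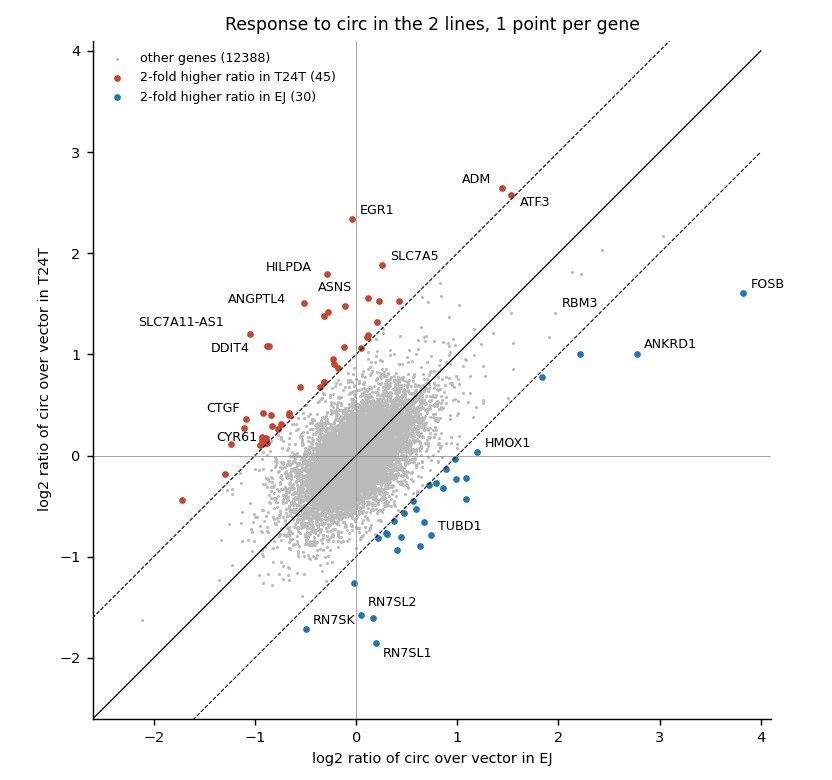
Each point is 1 of 12463 genes, with the log2 ratio of circ over vector in EJ on the x axis and in T24T on the y axis; the solid line marks equal ratios and the dashed lines a 2-fold difference. The 45 red genes had a higher ratio in T24T and the 30 blue genes a higher ratio in EJ, with EGR1 and FOSB farthest from the solid line in each direction.

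The genes that differed fell into distinct patterns. Among the 45 with a higher ratio in T24T, 22 moved up at least 1.5-fold in T24T alone, 18 moved down in EJ alone, 3 moved in opposite directions and 2 moved up in both lines. Among the 30 with a higher ratio in EJ, 11 moved down in T24T alone, 10 moved up in EJ alone, 4 moved up in both, 3 moved in opposite directions and 2 passed in neither line by itself. Of the 22 genes that moved up in T24T alone, 19 had a lower CPM in T24T vector than in EJ vector, against 57.5% of all genes compared. In T24T circ 5 of the 22 had a lower CPM than in EJ circ. The T24T vector library enters the rule, so the share of 19 is a description. For many of these genes the T24T vector library was the low one of the 4, with no second vector library to check it.

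Genes of amino acid synthesis had a higher ratio of circ over vector in T24T. In the list of ATF4 targets and the integrated stress response, 24 of the 32 members in the table were kept, 7 differed 2-fold towards T24T and none towards EJ. The interval left out 0, at any size, for 19 towards T24T and 1 towards EJ, against 13.0% and 13.1% of all genes compared. The list's median difference was 0.65, with median log2 ratios of -0.06 (EJ) and 0.56 (T24T).

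Short stretches of RefSeq promoters (GRCh38.p14) are shown for the 4 genes among the 45 with a higher ratio in T24T that hold the letters TGATGNAA, known as the amino acid response element that ATF4 can bind. The search covered 250 bases before to 50 after the start, on both strands. ASNS and ATF3 are members of the list, HERPUD1 belongs to the list of endoplasmic reticulum chaperones, and BCAT1 is on no list. Capitals mark the match, which in HERPUD1 lies on the opposite strand.
ASNS: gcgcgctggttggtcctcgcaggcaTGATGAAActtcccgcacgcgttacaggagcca
ATF3: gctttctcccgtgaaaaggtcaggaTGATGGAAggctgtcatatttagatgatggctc
BCAT1: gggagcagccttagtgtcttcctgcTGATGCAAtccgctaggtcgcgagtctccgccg
HERPUD1: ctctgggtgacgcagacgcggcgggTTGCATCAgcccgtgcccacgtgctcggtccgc
These stretches lie at chr7:97872444-97872501 (minus strand), chr1:212565191-212565248 (plus), chr12:24949117-24949174 (minus) and chr16:56931941-56931998 (plus). Of the 8896 kept genes with a promoter sequence, 133 (1.5%) held the letters. Of the 75 genes that differed 41 had a promoter sequence, too few for a share over them to be read. A match is a description of letters, not a shown binding site.

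ASNS, asparagine synthetase (chromosome 7, 97852118 to 97872542, hg38), stood at 89.5 CPM with vector and 97.3 with circ in EJ, against 47.9 and 141 in T24T. T24T vector was the lowest library and T24T circ the highest, with both EJ libraries between. The log2 ratios were 0.12 (EJ) and 1.56 (T24T), a difference of 1.44 (95% counting interval 1.28 to 1.59).

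The serine synthesis genes followed the same arrangement. PSAT1, which makes phosphoserine, had 64.1 CPM with vector and 74.9 with circ in EJ, against 30.5 and 88.1 in T24T, a difference of 1.301 (1.11 to 1.49). PHGDH, the first enzyme of the pathway, had 294 and 318 CPM against 151 and 340 in the same order, a difference of 1.06 (0.97 to 1.15). For PSPH, which removes the phosphate in the last step, the difference was 0.07 with an interval of -0.30 to 0.45, so the last enzyme did not share the size of the first and second. Among mitochondrial folate enzymes the difference was 0.75 for MTHFD2 (0.59 to 0.90) and 0.27 for SHMT2 (0.09 to 0.44).

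PCK2, the mitochondrial enzyme that makes phosphoenolpyruvate, had 27.1 and 29.3 CPM in EJ (vector, then circ) against 13.4 and 30.7 in T24T, a difference of 1.08 (0.78 to 1.37). BCAT1, which transaminates branched-chain amino acids and is on no list, rested on low counts of 132, 167, 21 and 69, and its interval of 0.35 to 1.86 around 1.11 was wide. STC2, a secreted glycoprotein induced by stress, differed from the enzymes in its order of libraries. It had 118 and 108 CPM in EJ and 249 and 524 in T24T, so that both T24T libraries were above both EJ libraries, with a difference of 1.19 (1.084 to 1.304).

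Regulators of the response varied among themselves. ATF4 itself had 492 CPM with vector and 395 with circ in EJ, against 291 and 363 in T24T, a difference of 0.63 (0.56 to 0.71) that fell short of 2-fold. DDIT3, encoding CHOP, gave 0.73 (0.470 to 0.999) and moved up in both lines, by log2 ratios of 0.84 (EJ) and 1.58 (T24T). ATF3, a stress-induced repressor, also moved up in both, 27.0 to 78.2 CPM in EJ against 6.94 to 41.9 in T24T, and its difference of 1.05 (0.73 to 1.37) was just past 2-fold. PPP1R15A, which restores translation by dephosphorylating eIF2alpha, had closer ratios, with log2 ratios of 1.36 (EJ) and 1.21 (T24T) and a difference of -0.14 (-0.22 to -0.06). TRIB3 gave 0.91 and SESN2 0.91, both under the 2-fold rule, with intervals of 0.66 to 1.15 and 0.41 to 1.41.

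Amino acid carriers were shifted in the same direction. Of 15 transporters, 10 were kept and 3 differed 2-fold towards T24T, against 0.361% of all genes compared. The interval left out 0 for 8 towards T24T and none towards EJ, against 13.0% and 13.1% of all genes compared. The median difference of the transporters was 0.81, with median log2 ratios of -0.11 (EJ) and 0.84 (T24T). SLC7A5, the LAT1 carrier of large neutral amino acids (chromosome 16, 87830023 to 87869488), had 606 CPM with vector and 725 with circ in EJ, against 79.8 and 294 in T24T. Both EJ libraries stayed above both T24T libraries, T24T vector was the lowest, and the difference was 1.62 (1.53 to 1.72). Its partner chain SLC3A2 moved up in both lines, by log2 ratios of 0.83 (EJ) and 1.70 (T24T) and a difference of 0.88.

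SLC7A11, the cystine importer xCT, had 30.6 CPM with vector and 24.6 with circ in EJ, against 8.42 and 22.0 in T24T, a difference of 1.69 (1.36 to 2.03). T24T vector was again the low library. The glycine carrier SLC6A9, under the rule, gave 0.89 (0.30 to 1.49) on 71 to 154 counts. The neutral amino acid carrier SLC1A4 rested on 93, 75, 39 and 80 counts and gave 1.12 (0.43 to 1.81), or 0.98 with a prior count of 10. For the glutamine carriers SLC1A5 and SLC38A2 the difference was 0.73 and 0.38, and SLC38A2 was lower with circ in both lines. The 2 transporters with a difference below 0, SLC38A1 (-0.06) and SLC7A6 (-0.21), had intervals that held 0.

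Cytosolic aminoacyl-tRNA synthetases, which load amino acids onto tRNA, showed smaller differences of the same sign. All 20 were kept, none differed 2-fold, and their median was 0.22. The interval left out 0 for 12 towards T24T and 2 towards EJ, against 13.0% and 13.1% of all genes compared. Large counts give narrow intervals, which bears on these numbers. Among cytosolic ribosomal protein genes, with a median of 0.01, the shares were 36.4% towards T24T and 30.3% towards EJ. CARS came nearest to the rule at 0.99 (0.85 to 1.13), with 92.1 and 110 CPM in EJ and 72.8 and 173 in T24T, and it passed at 1.01 with TMM scaling. GARS followed at 0.90, AARS at 0.78 and SARS at 0.62, while KARS at -0.25 and FARSA at -0.17 lay on the other side. The amino acid response letters were found in the promoters of 6 of the 16 synthetases with a sequence, AARS, CARS, IARS, MARS, NARS and TARS. Their differences ran from 0.22 to 0.99 with a median of 0.49, against a median of 0.02 and a range of -0.25 to 0.90 in the 10 without. Among transporters the order was the other way, with a median of 0.39 in the 3 with the letters and 0.81 in the 6 without, and ATF4 targets gave 1.24 in 2 with and 0.70 in 18 without. These groups are small and nothing is read from them. GARS did not hold the letters in this window, and over all kept genes the median was 0.09 with the letters and -0.01 without.

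**Figure D2:**
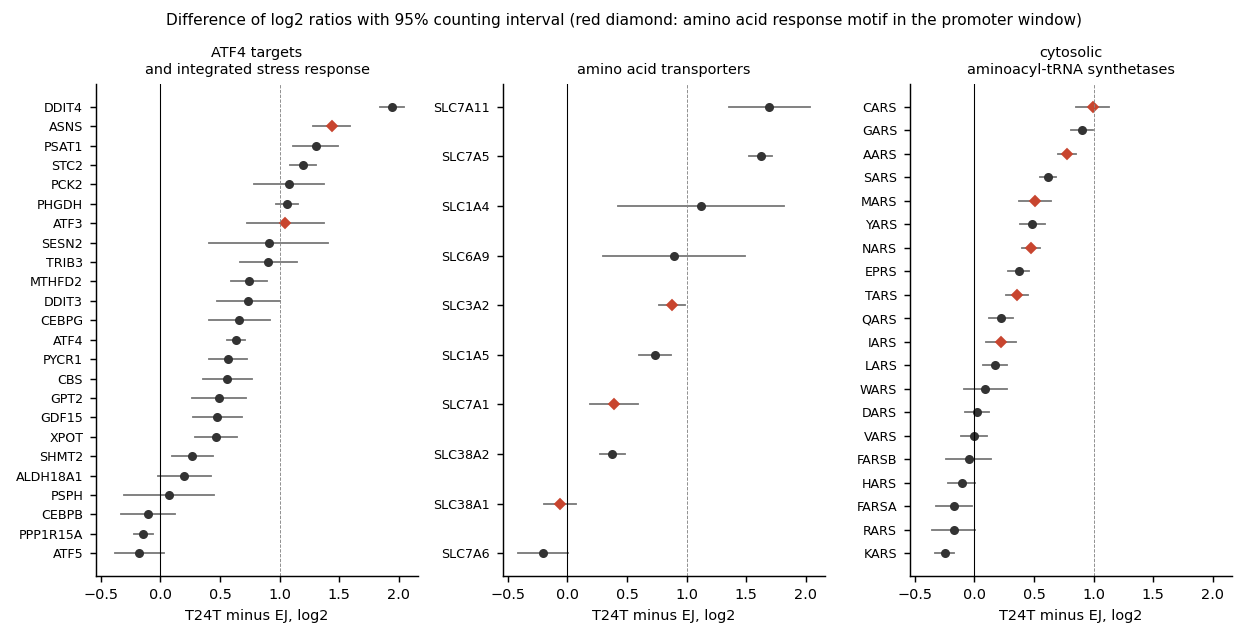
The x axis gives the difference of log2 ratios, T24T minus EJ, with its 95% counting interval, for each kept member of 3 lists; red diamonds mark promoters that hold the amino acid response letters. Members of the first and second list reach beyond the dashed 2-fold line, DDIT4 and SLC7A11 farthest at 1.94 and 1.69, and the synthetases end at 0.99.

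The branch of the unfolded protein response that makes chaperones lay towards T24T by small amounts. Of 24 members, all kept, HERPUD1 alone differed 2-fold, and the interval left out 0 for 9 (37.5%) towards T24T and 1 towards EJ, against 13.0% and 13.1% of all genes compared. The list's median was 0.10. HERPUD1, which assists the removal of misfolded proteins from the endoplasmic reticulum, had 24.9 and 28.7 CPM in EJ and 19.4 and 48.8 in T24T, a difference of 1.12 (0.85 to 1.39). For HSPA5, the main chaperone of that compartment, the CPM went from 479 to 731 (EJ) against 664 to 1370 (T24T), a difference of 0.44. XBP1 gave 0.62 and the sensor kinase gene ERN1 0.35 with an interval that held 0, and 22 of the 24 members lay above 0.

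Opposite responses were rare. At the rule of at least 1.5-fold up in 1 line and 1.5-fold down in the other, each beyond counting error, 6 genes qualified (0.0481%). Opposite signs of any size beyond counting error were seen for 276 genes, against 3189 that went the same way in both lines. The clearest was DDIT4, an inhibitor of the growth kinase mTORC1 that responds to hypoxia, ATF4 and glucocorticoids (chromosome 10, 72273920 to 72276036). It had 229 CPM with vector and 126 with circ in EJ, against 230 and 487 in T24T. The vector libraries were level, EJ circ lay below them and T24T circ above, and the difference was 1.94 (1.85 to 2.04). The clone-named RP11-442H21.2 shares exon bases with DDIT4 on the other strand and had 0.778 to 0.79 times its count in all 4 libraries, and without stated strand use its reads cannot be told from those of DDIT4.

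SLC7A11-AS1, an antisense transcript that overlaps exons of SLC7A11, went from 114 to 51 counts in EJ, against 28 to 72 in T24T, a difference of 2.25 (1.48 to 3.02). Its count was 0.141 to 0.238 times that of SLC7A11, and part of it may be reads of that gene for the same reason. The other opposite genes went up in EJ and down in T24T on low counts. TUBD1, encoding delta-tubulin, had 59 and 94 counts in EJ and 87 and 53 in T24T, a difference of -1.53 (-2.20 to -0.86). CRIPAK, an inhibitor of the kinase PAK1, had 36 and 55 counts in EJ and 63 and 42 in T24T (-1.33, -2.14 to -0.52). A clone-named transcript that shares exon bases with DDX52 gave -1.52 with 44 to 78 counts.

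Genes of the hypoxia and glycolysis list leaned towards T24T. Of 30 members 25 were kept, 3 differed towards T24T and none towards EJ. The interval left out 0 for 18 (72.0%) towards T24T and 2 (8.0%) towards EJ, against 13.0% and 13.1% of all genes compared. The list's median difference was 0.33, with median log2 ratios of -0.11 (EJ) and 0.19 (T24T). ANKRD37, a direct target of hypoxia-inducible factor, had 109 and 95 counts in EJ and 88 and 267 in T24T, a difference of 1.59 (1.07 to 2.11). NDRG1, a stress-induced differentiation gene, had 162 and 130 counts in EJ and 690 and 1431 in T24T, a difference of 1.18 (0.82 to 1.53). The vasodilator peptide gene ADM moved up in both lines, 20 to 54 counts in EJ against 41 to 286 in T24T, a difference of 1.21 with a wide interval of 0.36 to 2.06.

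HILPDA and ANGPTL4, lipid genes known to answer to hypoxia and fatty acids, were not on that list and differed by more. HILPDA, which blocks lipolysis at lipid droplets, had 6.91 CPM with vector and 5.64 with circ in EJ, against 6.29 and 22.0 in T24T. Of the 4 libraries T24T circ alone was high, and the difference was 2.08 (1.57 to 2.59). ANGPTL4, a secreted inhibitor of lipoprotein lipase (chromosome 19, 8363289 to 8374373), had 16.8 and 11.7 CPM in EJ and 38.8 and 111 in T24T, with log2 ratios of -0.52 and 1.51 and a difference of 2.03 (1.73 to 2.33).

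The remaining hypoxia members stayed under 2-fold. VEGFA, the vessel growth factor, gave 0.39, the glucose carrier SLC2A1 0.29, and the glycolysis regulators PFKFB4 and PFKFB3 0.73 and 0.71. The enzymes ENO1 (-0.06), GAPDH (-0.04) and LDHA (0.13) were near 0 on large counts. They do not stand for the list, in which 22 kept members lay above 0 and 3 below, with a lowest value of -0.06. Below the count minimum, PPP1R3C, a glycogen-targeting subunit, had 35 and 27 counts in EJ and 16 and 103 in T24T. CA9, a carbonic anhydrase often used as a hypoxia marker, had at most 2 counts in any library. The hypoxia core letters ACGTG occur in 27.5% of all promoters searched, so a match in a single gene says little.

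**Figure D3:**
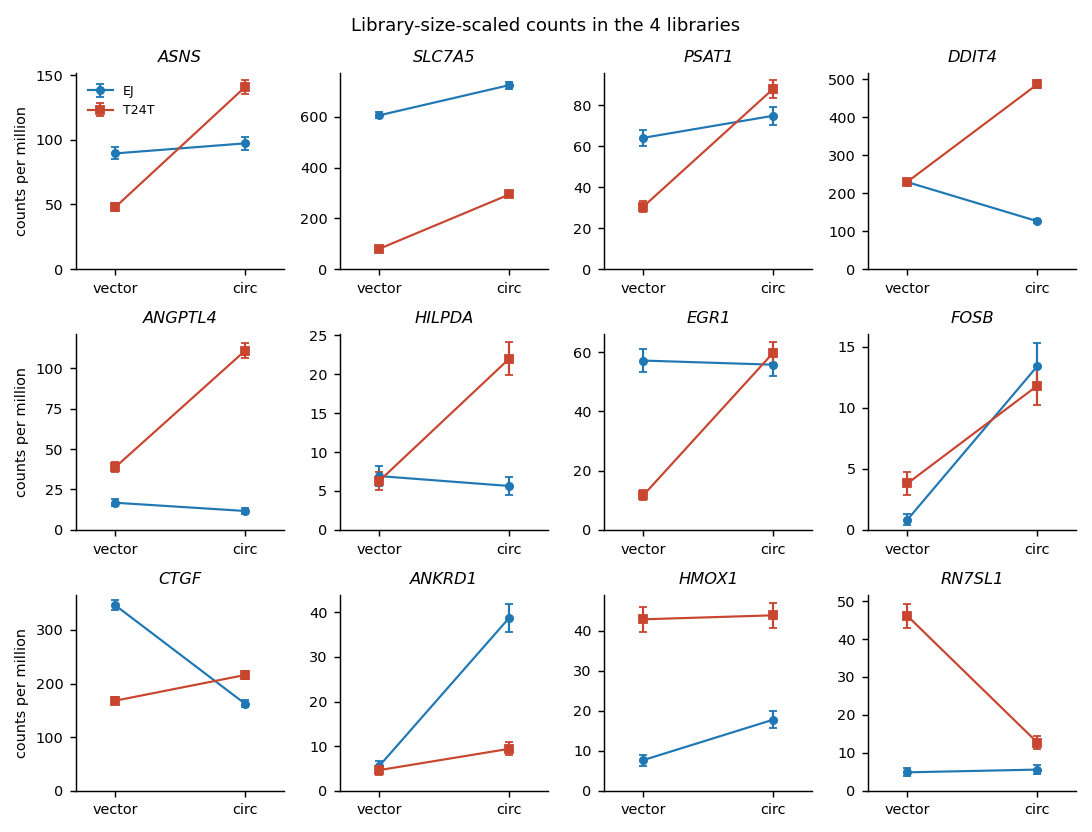
CPM on the y axis (each panel starts at 0) in vector and circ libraries for EJ (blue circles) and T24T (red squares); bars are 95% counting error. The panels show the kinds of pattern described: low T24T vector (ASNS, PSAT1, SLC7A5), equal vectors with opposite responses (DDIT4), high T24T circ alone (HILPDA), and high T24T vector (RN7SL1).

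Immediate early genes split in both directions, with EGR1 and FOSB at the extremes of the whole table. Of 27 members 19 were kept, 1 differed 2-fold towards each line, and the list's median was 0.11. Over all genes compared 0.361% differed 2-fold towards T24T and 0.241% towards EJ. The interval left out 0 for 6 members (31.6%) towards T24T and 4 (21.1%) towards EJ, against 13.0% and 13.1% of all genes compared. EGR1, a zinc finger factor switched on within minutes of growth signals (chromosome 5, 138465490 to 138469315), had 57.2 CPM with vector and 55.8 with circ in EJ, against 11.7 and 59.9 in T24T. T24T vector was far below the other libraries, which lay close together, and the difference was 2.38 (2.12 to 2.63).

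FOSB, an AP-1 subunit, gave the opposite picture. It had 13 counts with vector and 197 with circ in EJ, against 64 and 213 in T24T, so it moved up in both lines and the circ libraries ended near one another, at 13.4 and 11.8 CPM. The low library here was EJ vector, and the difference of -2.22 (-3.08 to -1.36) rests on its 13 counts. KLF10 (-0.70) also moved up in both lines and more in EJ, whereas NR4A2 gave 0.65, and FOS (-0.43), FOSL1 (-0.42), JUN (0.23) and JUNB (-0.17) stayed under 2-fold.

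DUSP1, a phosphatase that shuts off stress and growth kinases, was the 1 member of 16 kept ERK feedback genes that differed. It had 102 CPM with vector and 83.9 with circ in EJ, against 48.7 and 130 in T24T, a difference of 1.70 (1.54 to 1.85). DUSP6 gave 0.87 (0.60 to 1.13) and a clone-named transcript that overlaps its exons gave 1.04, whose reads cannot be told apart from those of DUSP6. DUSP5, a phosphatase of nuclear ERK, gave 0.44. SPRY4, a feedback inhibitor of receptor signals, was lower with circ in EJ (208 to 137 CPM) and level in T24T (198 and 197), a difference of 0.59. The list's median was 0.17. Beyond counting error lay 6 members (37.5%) towards T24T and none towards EJ, against 13.0% and 13.1% of all genes compared.

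Promoter stretches are shown for 3 genes of the serum and YAP programs whose ratios were far apart. In EGR1 the capitals mark serum response boxes, found in 0.911% of the promoters searched. In CTGF and ANKRD1 they mark GGAATG, the letters TEAD factors bind, found on either strand in 10.6%.
EGR1: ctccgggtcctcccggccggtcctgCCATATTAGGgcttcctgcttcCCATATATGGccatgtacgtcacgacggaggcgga
CTGF: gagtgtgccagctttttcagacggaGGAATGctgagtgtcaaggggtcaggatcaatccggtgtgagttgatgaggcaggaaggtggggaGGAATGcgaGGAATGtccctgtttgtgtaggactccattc
ANKRD1: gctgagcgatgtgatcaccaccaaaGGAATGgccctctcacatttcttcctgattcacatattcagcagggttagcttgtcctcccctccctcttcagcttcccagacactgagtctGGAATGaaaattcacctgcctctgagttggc
They lie at chr5:138465349-138465430 (plus strand), chr6:131951437-131951566 (minus) and chr10:90921185-90921332 (minus) of GRCh38.p14. CTGF holds 3 matches and ANKRD1 holds 2 in the window searched, yet their responses went to opposite sides of the comparison.

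CTGF, a matrix-associated growth regulator also called CCN2 (chromosome 6, 131948176 to 131951373), had 346 CPM with vector and 162 with circ in EJ, against 168 and 216 in T24T. EJ vector was the high library, and the difference was 1.45 (1.36 to 1.55). CYR61, its relative CCN1, had 618 CPM with vector and 334 with circ in EJ, against 881 and 995 in T24T. EJ circ lay below the other libraries, and the difference was 1.06 (1.003 to 1.120). Both were lower with circ in EJ by more than 1.5-fold and moved by less than that in T24T. The clone RP11-69I8.3 shares exon bases with CTGF and gave 1.12, which may hold its reads.

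ANKRD1, a muscle ankyrin repeat factor and a known YAP target, moved up in both lines and more in EJ. It had 5.56 CPM with vector and 38.8 with circ in EJ, against 4.63 and 9.41 in T24T. The vector libraries were alike and EJ circ stood apart, with a difference of -1.77 (-2.27 to -1.27). The other 15 members of the YAP and TEAD list were under 2-fold, from WWTR1 at -0.34 to F3 at 0.56, and the list's median was 0.11. Of the 18 members, all kept, 13 lay above 0, and the interval left out 0 for 7 (38.9%) towards T24T and 2 (11.1%) towards EJ, against 13.0% and 13.1% of all genes compared. YAP1 (0.05) and TEAD1 (0.16) had intervals that held 0.

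**Figure D4:**
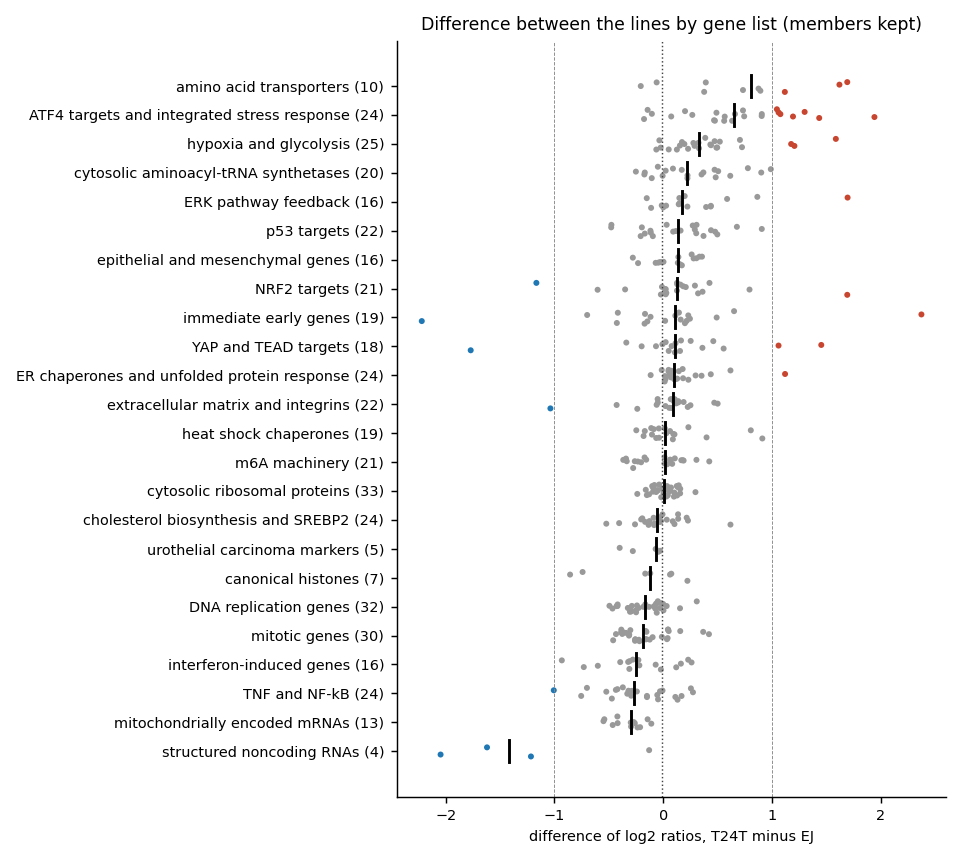
Each point is a kept member of a gene list placed by its difference of log2 ratios, T24T minus EJ (x axis), red or blue where it differed 2-fold; black bars are list medians and the dotted line is the median of -0.01 over all genes. The amino acid transporters and ATF4 targets lie farthest to the right with medians of 0.81 and 0.65. The structured noncoding RNAs lie farthest to the left at -1.42, a median over 4 kept members.

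Of 18 structured noncoding RNAs listed 4 were kept. Of these, 3 made by RNA polymerase III differed 2-fold towards EJ and were highest in the T24T vector library. The share that differed 2-fold towards EJ was 0.241% over all genes compared. RN7SL1 and RN7SL2 are copies of 7SL, the RNA scaffold of the signal recognition particle. Because the copies are nearly identical, reads of one can be counted with the other and neither value is certain by itself.

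RN7SL1 had 76 and 82 counts in EJ and 778 and 229 in T24T, a difference of -2.05 (-2.54 to -1.55). RN7SL2 had 136 and 132 in EJ and 811 and 290 in T24T, a difference of -1.62 (-2.01 to -1.23). RN7SK, which holds the elongation factor P-TEFb inactive, had 82 and 54 in EJ and 916 and 297 in T24T, a difference of -1.22 (-1.74 to -0.69). In all 3 the T24T vector library was the highest by far. RPPH1, the RNA of RNase P, is also made by that polymerase, yet it had 338, 382, 300 and 353 counts and a difference of -0.13 whose interval held 0.

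Together the 18 RNAs of this list took 0.0042% of counts with vector and 0.00465% with circ in EJ, against 0.0171% and 0.00698% in T24T. These shares move with the T24T vector library that is also low for ASNS, SLC7A5 and EGR1, and their part in those results was not tested. CH507-513H4.3, named by its clone on chromosome 21, was also highest in T24T vector. It had 24.6 CPM with vector and 27.6 with circ in EJ, against 82.3 and 26.9 in T24T, so T24T circ lay between the EJ libraries. The rows named MIR24-2 (-1.24) and MIR29A (-1.52) span 1844 and 6681 bases of exon, far more than a mature microRNA, and hold their host transcripts.

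Stress and secreted genes with a higher ratio in EJ were few. HMOX1, the heme oxygenase induced by NRF2 and heme (chromosome 22, 35380361 to 35394214), had 7.67 CPM with vector and 17.8 with circ in EJ, against 42.9 and 43.9 in T24T. Both T24T libraries were level and above EJ, and the difference was -1.17 (-1.51 to -0.82). Of the 21 kept NRF2 genes, HMOX1 among them, 5 lay below 0 and 16 above, with a median of 0.13. The interval left out 0 for 2 (9.52%) towards EJ and 9 (42.9%) towards T24T, against 13.1% and 13.0% of all genes compared. OSGIN1, an oxidative stress response gene, also moved up in EJ alone, from 32 to 62 counts against 120 to 170 in T24T, and its difference of -0.603 had an interval that held 0. KEAP1, the inhibitor of NRF2, gave -0.35 (-0.67 to -0.03). SLC7A11 at 1.69 and PIR at 0.79 lay farthest on the other side, and NQO1, GCLM and TXNRD1 gave 0.32, 0.02 and 0.43. IGFN1, an immunoglobulin-like protein best known from muscle and chosen after its values were seen, was the gene with the most counts among the 30. It had 3969 and 6887 counts in EJ and 2225 and 2177 in T24T, a difference of -1.01 (-1.12 to -0.91).

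NF-kB targets leaned towards EJ without large differences. Of 24 kept members 1 differed 2-fold. The interval left out 0 for 13 (54.2%) towards EJ and 2 (8.33%) towards T24T, against 13.1% and 13.0% of all genes compared. The list's median was -0.27, where the lines' own medians were 0.18 (EJ) and 0.05 (T24T). CXCL2, a neutrophil chemokine, had 37 and 70 counts in EJ and 2720 and 2845 in T24T, so its difference of -1.01 (-1.57 to -0.44) rests on few EJ counts and became -0.99 with TMM scaling, under the rule. CXCL1 had 423 and 432 counts in EJ and 28936 and 19949 in T24T, a difference of -0.75 that came from the T24T side. ICAM1 (-0.52) and TRAF1 (-0.70) lay on the same side, while NFKBIZ gave 0.27 and CXCL8 gave -0.01 with an interval that held 0.

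Interferon-induced genes were similar in this respect, with a median of -0.25 over 16 kept members, none of them 2-fold. Beyond counting error lay 5 (31.2%) towards EJ and 1 (6.25%) towards T24T, against 13.1% and 13.0% of all genes compared. IFIT3, which helps restrain viral RNA translation, moved from 61 to 166 counts in EJ, against 64 to 103 in T24T, a difference of -0.93 (-1.54 to -0.32). IRF9, which carries the interferon signal to DNA, gave -0.73, and DDX58, the viral RNA sensor RIG-I, -0.601. IFIT2 moved up in both lines, 21 to 114 counts in EJ against 27 to 125 in T24T, and its difference of -0.40 had an interval that held 0.

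Proliferation genes differed by small amounts, more often towards EJ. Of 30 mitotic genes, all kept, 19 lay beyond counting error towards EJ and 3 towards T24T, with a median of -0.19, 8 of them above 0, and none differed 2-fold. The share towards EJ was thus 63.3%, against 13.1% of all genes compared. FOXM1, a driver of mitotic transcription, went from 142 to 126 CPM in EJ, against 134 to 86.8 in T24T, a difference of -0.46 (-0.59 to -0.33). The cyclin gene CCNA2 gave -0.43 and the kinase gene AURKA -0.39, while CENPA, the centromeric histone, gave 0.42 on the other side. Among 32 replication genes 12 (37.5%) lay beyond counting error towards EJ and 1 towards T24T, with a median of -0.16. RRM2, a ribonucleotide reductase subunit, gave -0.47, E2F2 -0.49, GINS4 -0.43 and the cyclin gene CCNE2 -0.42.

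All 13 mitochondrially encoded mRNAs had a lower circ over vector ratio in T24T than in EJ, by -0.11 for MT-ND6 to -0.55 for MT-CO3, with MT-ATP6 (-0.54), MT-CYB (-0.46) and MT-ATP8 (-0.42) next. Their median log2 ratios were -0.47 (EJ) and -0.79 (T24T), so they were lower with circ in both lines. They are cut from long precursors of the same small genome and are not independent. Depth bears on such counts, since large counts give narrow intervals. Of 33 cytosolic ribosomal protein genes, whose median was 0.01, 12 (36.4%) lay beyond counting error towards T24T and 10 (30.3%) towards EJ. The shares over all genes compared were 13.0% and 13.1%. The farthest of the ribosomal protein genes were RPL27 (0.30), RPL30 (-0.24), RPL8 (-0.16) and RPL24 (0.16).

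Other lists had medians from -0.12 to 0.14, a range that also holds the medians of the chaperone, immediate early and YAP lists. The cholesterol genes had a median of -0.06 and log2 ratios near -0.56 in both lines. STARD4 at 0.62, TM7SF2 at -0.52, NSDHL at -0.405 and HSD17B7 at -0.26 were the farthest from 0. The intervals of TM7SF2 and HSD17B7 held 0. The heat shock list had a median of 0.02, with HSPA1B at 0.91 and HSPA1A at 0.81 above it, both uncertain because these copies are nearly identical, and with DNAJB1 at 0.399 and HSF1 at -0.25 next. The p53 list had a median of 0.14, with GADD45A (0.68), TP53INP1 (0.498) and RRM2B (0.48) farthest after SESN2. The epithelial and mesenchymal list also had 0.14, and its farthest members were KRT80, PKP2, DSG2 and KRT81, at 0.28 to 0.36. The 7 histones kept had a median of -0.12, with HIST1H2AC at -0.74, beyond counting error, and HIST1H2BG at -0.86, HIST3H2A at 0.22 and HIST2H2AA3 at -0.165, whose intervals held 0. The matrix and integrin list had a median of 0.09. In the matrix list COL7A1, the anchoring fibril collagen, gave -1.04 (-1.62 to -0.45) on 44 and 58 counts in EJ and 557 and 402 in T24T, or -0.97 with a prior count of 10, while FN1 gave -0.43, COL12A1 0.47 and COL6A2 0.501 with an interval that held 0. HIST2H4A, chosen after its values were seen, gave -1.06 on 32 to 201 counts and has a near-identical copy.

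Genes that earlier work ties to this circle were similar in the lines or differed by less than 2-fold. RBM3, which that work names as the host gene of the circle, was higher in both circ libraries than in both vector libraries. This order goes with the circ and vector labels and cannot check the labels of the lines. RBM3 had 279 CPM with vector and 1090 with circ in EJ, against 275 and 733 in T24T, a difference of -0.55 (-0.62 to -0.48). Reads of the construct would be counted with RBM3 and cannot be told apart from its own mRNA. TNFAIP3, the NF-kB inhibitor A20, moved up in both lines, 122 to 339 counts in EJ against 1053 to 2443 in T24T, a difference of -0.44 (-0.75 to -0.12). WTAP (-0.34) and METTL3 (-0.34) were beyond counting error and METTL14 (0.06) was not, with intervals of -0.49 to -0.18, -0.62 to -0.06 and -0.18 to 0.31. Over 21 genes of the m6A machinery the median was 0.01, and ZC3H13 (0.42) and METTL16 (-0.37) were the farthest from 0. Beyond counting error lay 5 members (23.8%) towards T24T and 6 (28.6%) towards EJ, against 13.0% and 13.1% of all genes compared.

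Most other genes that differed were of low count. The lowest library had under 100 counts in 26 of the 45 and 25 of the 30, against 2398 of all 12463 genes compared. The median count of the lowest library was 86, 49 and 312 in the same order. No gene with a difference of 2-fold was turned away by its interval. Protein-coding genes made up 75.6% of the 45 and 53.3% of the 30, against 81.9% of all genes compared, and 42.7% of all genes compared shared exon bases with another gene, as did 35.6% and 16.7% of the called genes. Among the genes that moved in EJ alone, EVA1B went from 85 to 23 counts in EJ, against 143 to 112 in T24T. GPR55, a lipid-sensing receptor, went from 64 to 27 against 57 to 74, and KCNMB4, a potassium channel subunit, from 83 to 32 against 81 to 94. The noncoding WFDC21P went from 68 to 35 against 100 to 142, a difference of 1.24. With a higher ratio in EJ, SFR1, a recombination factor, went from 28 to 58 against 69 to 63, and ABHD16B from 27 to 52 against 78 to 71, while RHEBL1, a relative of the GTPase Rheb, went from 70 to 90 against 111 to 67. Their differences were -1.31, -1.21 and -1.25. The rule's edge lay at YPEL2 (1.003) and CXCL2 (-1.01) just inside and at CARS (0.99) and FASTKD3 (-0.99) just outside.

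**Figure D5:**
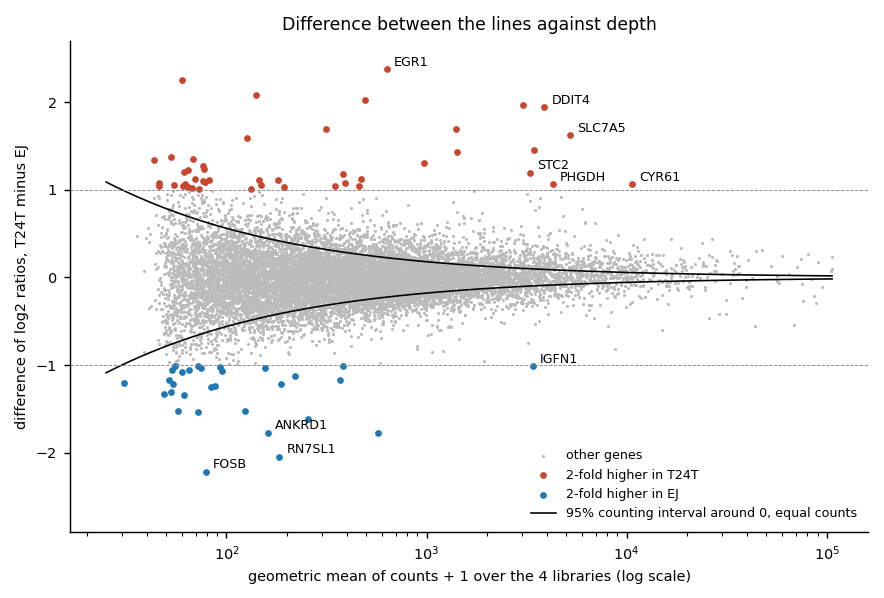
The x axis (log scale) gives the geometric mean of counts plus 1 over the 4 libraries and the y axis the difference of log2 ratios, T24T minus EJ; the curves show the 95% counting interval around 0 for equal counts. Most of the 75 called genes lie towards the left, where the curves are wide, while DDIT4, SLC7A5, STC2, PHGDH and CYR61 lie far outside the curves at high counts.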

How the data were processed

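RNA sequencing reads were trimmed with Trimmomatic and aligned with HISAT2 to hg38, per the submitters' processing notes, which give no versions. The counting tool, the annotation and the use of strand are not given in the sources used here. The authors deposited raw read counts for 56303 genes, used for the results, and RPKM values for 29817 genes, used as an alternative. Each deposited RPKM value equalled the count over gene length and total count in 100% of cases (relative tolerance 1e-06). Coordinates are those of the deposited counts table. Exon overlaps between kept genes were also taken from the coordinates of that table. Gene types and GC content came from GENCODE 29, with types matched for 87.7% of kept genes, and promoters from RefSeq for 71.4%.

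Counts were scaled by the library totals and log2 ratios taken with a prior count of 2. Intervals are Poisson intervals on the log scale. The calculation was run on simulated Poisson counts with known differences. Those counts hold no variation between libraries, so the run cannot show how the intervals perform on the real libraries. The scripts used Python 3.11.15, numpy 2.4.6, scipy 1.17.1 and pandas 2.3.3, and edgeR 4.0.16 in R 4.3.3 for scaling factors alone.

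Members and the 27 gene lists were chosen with earlier results of these data known. The text names TNFAIP3, WTAP, METTL3, METTL14 and RBM3, the 12 genes per direction with the largest difference, up to 10 opposite genes per direction, the 4 members farthest from 0 in each list and up to 3 noncoding genes per direction. Clone names are left out of these choices. Other list members and genes are cited as examples after their values were seen.

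Alternatives covered scaling, prior count, count minimum, fold, interval, an assumed variation between libraries, RPKM, GC and length trends and thinning.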

Additional observations from a re-analysis of the deposited data

Results flagged for a closer look

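DDIT4 was lower with circ in EJ and higher with circ in T24T, with a difference of 1.94 between the lines. RP11-442H21.2, which overlaps it, gave 1.97. SLC7A11-AS1 went the same way with 2.25. In the other direction, up in EJ and down in T24T, TUBD1 gave -1.53, a clone-named transcript that overlaps DDX52 -1.52 and CRIPAK -1.33. Each stands out because the single pair of libraries of 1 line moved up and that of the other moved down. The difference was not tested in any of the 6, as each group has 1 library.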

How the results depend on the processing

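The counts of genes that differed moved by over 1.5 times with the count minimum and with the fold required. With a minimum of 1, 20 and 200 counts, 202, 117 and 19 genes had a higher ratio in T24T, 172, 95 and 4 in EJ, and 14, 12 and 2 were opposite. A 1.5-fold rule (with a smaller change required in each line for opposite genes) gave 258, 241 and 26, and a 3-fold rule (2-fold in each line) 10, 5 and 1. A prior count of 10 left 19 of the 30 genes higher in EJ, and a counting interval wider than 95% left 18 of those and 3 opposite genes. The other counts stayed within 1.5 times of the value reported. TMM factors gave 48, 25 and 6, with all 45 genes higher in T24T and 25 of the 30 higher in EJ shared with the reported calls. Scaling moved the median over all genes to between -0.02 and 0.02.

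Over 10 alternatives for single named genes, 1101 of 1115 values kept their side of the 2-fold rule and, for genes that differed 2-fold, their direction. The 14 exceptions were those of SLC1A4 and COL7A1 (each under 2-fold with a prior count of 10 and with RPKM), CXCL2 (-0.885 to -0.999 in 7 alternatives) and CARS (1.002 to 1.018 in 3 scalings). No named gene that differed 2-fold changed direction. For named genes under the 2-fold rule a change of sign was not checked. Over the alternatives that can move a median, 281 of 287 list medians moved by less than 0.1. The transporter median became 0.56 with a minimum of 200 counts, and that of the structured noncoding RNAs -0.53 with a minimum of 1 and -1.32 without GC and length trends. The histone median was -0.36 and -0.59 with a minimum of 1 and 20 counts and changed sign, from -0.12 to 0.063, with 200, as members enter and leave.

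No paired analysis was possible because each group has 1 library, and for the same reason leaving out a library gives no value. Depth limits the result: 2-fold differences of genes with about 50 counts are close to their counting error, and variation between libraries adds to it by an amount these data do not measure.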
